A study of Homo sapiens with 12 samples.

Results

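The subject here is the response of polysome-bound mRNAs to 10 Gy of radiation in human MCF10A cells with eIF4G1 silenced. The members are 4 of the 12 arrays of the series, chosen by their titles. They hold heavy polysome RNA (HMW) and light polysome RNA (LMW) of silenced cells, each from mock-treated and from irradiated cells. Both come from sucrose gradients of cycloheximide-treated cells. The labels call the silenced cells 4GKD. A doxycycline-inducible short hairpin RNA silenced the factor, and a Varian linear accelerator delivered the dose. Each condition and preparation had 1 array, so the arrays form 2 matched pairs, 1 in HMW and 1 in LMW. The remaining 8 arrays hold the Total RNA of 4GKD cells, mock and 10 Gy, and the same 6 conditions of wild-type (WT) cells. MCF10A is a mammary epithelial culture line usually regarded as non-tumorigenic, although the labels list breast cancer as its origin. The sources used here state neither the time from irradiation to harvest nor whether WT cells had a control hairpin or the drug. Ribosome numbers are labelled for the WT mock pools alone, where LMW held 1 to 3 and HMW 4 or more per mRNA.

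An mRNA under translation carries several ribosomes and sediments deeper in a sucrose gradient the more of them it carries. Heavy polysomes thus hold mRNAs with many ribosomes and light polysomes mRNAs with few. The number is not scaled to the length of the mRNA, so a place in the light pool does not by itself mean poor translation. The protein eIF4G1 is the scaffold of the complex that binds the mRNA cap and recruits the small ribosomal subunit. Ionising radiation breaks DNA, and the kinases ATM and ATR then stabilise p53, a transcription factor. Its targets include the CDK inhibitor p21 (CDKN1A), its own ubiquitin ligase MDM2 and pro-apoptotic proteins. Through p21, the DREAM repressor complex assembles and silences genes of DNA replication and mitosis, many of which hold CCAAT boxes and the CHR element TTTGAA in their promoters.

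The deposited values are RMA intensities, taken here to log2. RMA brings arrays to one overall level, so a change in the amount of polysomes as a whole is not seen. Of 19775 genes on the array, 10157 reached a log2 level of 6 in at least 4 of the 12 arrays and were kept, each with 1 probe set. EIF4G1 checks the label. Its intensity in mock HMW was 184.6 in 4GKD and 2901.8 in WT cells, 6.36% of the WT level, and 26.8% in mock LMW. After 10 Gy these shares were 9.43% in HMW and 23.5% in LMW. A second EIF4G1 probe set gave 5.78% and 36.8% in mock HMW and LMW, and 8.73% and 73.6% after 10 Gy. It was below 6 in all 4 polysome arrays of 4GKD cells. The share left in LMW thus depends on the probe set. WT polysome arrays stood apart. Mock and irradiated arrays of one pool had a Spearman correlation of 0.984 in HMW and 0.980 in LMW of 4GKD cells, but of 0.896 and 0.886 in WT cells. The WT 10 Gy HMW array was closer to 4GKD mock HMW (0.939) and to WT mock Total (0.922) than to WT mock HMW, and WT mock HMW was closest to 4GKD mock LMW (0.932). All 7 basal epithelial markers on the array stood at 6 or above in the 4 polysome arrays, KRT5, KRT14 and EGFR among them, as did 4 of 8 luminal markers. Of 8 mesenchymal markers 3 did so (COL1A1, DCN and PDGFRB), of 4 leukocyte markers CD14 alone, and of 4 endothelial markers 0. The summed intensity of the basal list ranged from 33527.7 to 44273.7 over the 4 arrays and that of the leukocyte list from 143.0 to 213.3. Of these markers KRT14 (0.68), KRT5 (0.24), ERBB3 (0.88) and COL1A1 (0.41) were called higher after 10 Gy and CD14 (-0.55) lower. The values are mean log2 differences of both pools by limma, and ERBB3 was below 6 in both mock pools. The part of these markers in the results was not tested.

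Most polysome-bound mRNAs differed little between irradiated and mock-treated 4GKD cells. The log2 difference, 10 Gy minus mock and called the shift from here on, was within 0.5 for 91.4% of genes in HMW and for 89.9% in LMW. A shift of 1, or 2-fold, was reached upwards by 34 genes in HMW (0.335% of those kept) and by 23 in LMW (0.226%). Downwards it was reached by 52 genes in HMW (0.512%) and by 112 in LMW (1.1%). With 1 array against 1, a shift within a pool has no replicate and no test. The second pool is the only repeat. Across genes, which are not independent replicates, the 2 shifts had Pearson's r = 0.59 and Spearman's rho = 0.50 over 10157 genes.

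Of the 34 genes past 2-fold upwards in HMW, 33 were also above 0 in LMW, and all 52 that passed downwards were below 0 there. The 23 upward genes of LMW were all above 0 in HMW, and 106 of its 112 downward genes were below 0. Of all 10157 genes, 5639 were above 0 in HMW and 4766 in LMW, and 4514 and 5390 were below 0. In both pools 9 genes passed 2-fold upwards (0.0886% of those kept) and 34 downwards (0.335%). A gene was assigned to 1 pool when it passed 2-fold there and its 2 shifts lay at least 1 apart on the log2 scale. By that rule 3 genes were higher in HMW alone (0.0295%), 15 were lower in LMW alone (0.148%), and 0 were lower in HMW alone, higher in LMW alone or opposite. A further 117 genes passed 2-fold in 1 pool with shifts less than 1 apart, and all 117 went the same way in the other pool. No sharp edge set the both-pool genes apart: CCNB1 (-1.004 in HMW), ASPM (-1.01) and SGO2 (-1.02) lay just inside, and HJURP (-0.999), NEIL3 (-0.999) and MAD2L1 (-0.98) just outside. On the upward side GM2A, at 0.98 in HMW and 1.03 in LMW, lay just outside.

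**Figure D1:**
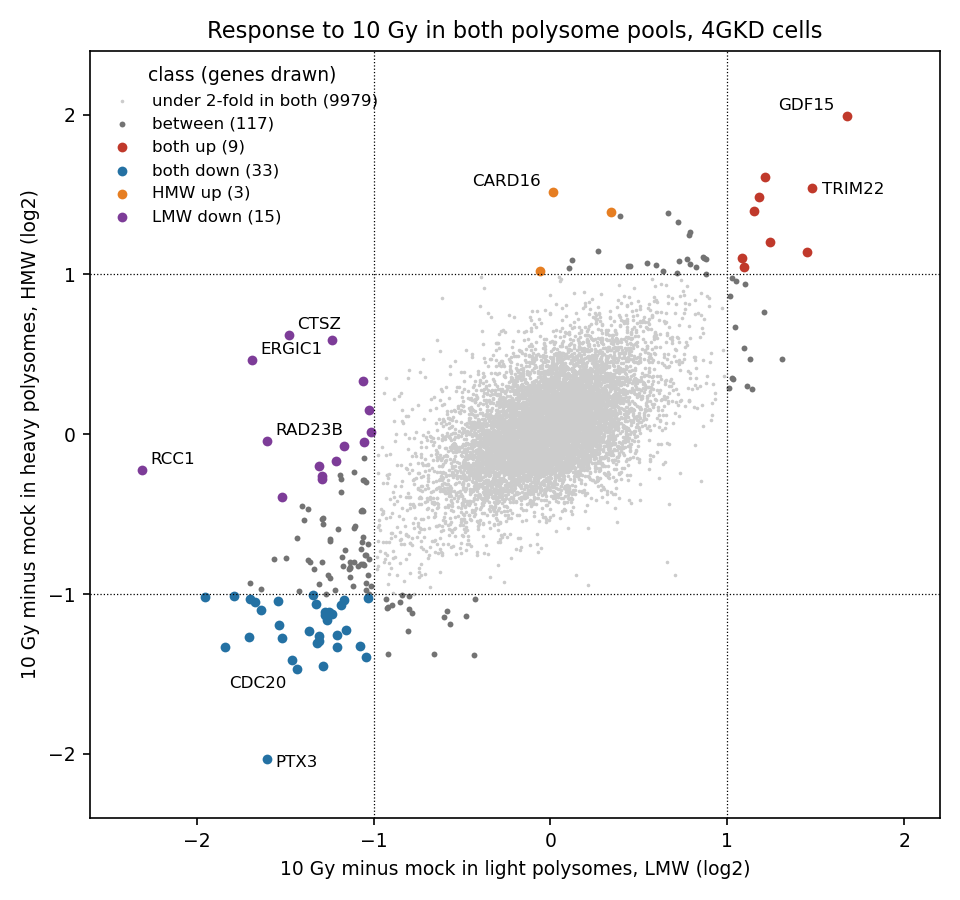
Shift in heavy polysomes (vertical axis, log2) against shift in light polysomes (horizontal axis, log2) for the kept genes of 4GKD cells, with 1 point per gene and dotted lines at 2-fold. Points past both lines fill the upper right and lower left corners, the corners of opposite direction are empty, and the 15 genes lower in light polysomes alone form an arm to the left. One downward gene is not drawn.

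A fit in limma over the 4 arrays, with the pool as a block, estimated the mean shift of both pools. It called 671 genes higher (6.61% of 10157) and 772 lower (7.6%) at a Benjamini-Hochberg adjusted p of 0.05. At a mean shift of at least 2-fold, 16 of them were higher (0.158%) and 58 lower (0.571%). This fit leaves 1 residual degree of freedom, against 49.6 that limma borrows from other genes, so a gene's own disagreement between its pools hardly enters its p. Nothing says that the pools came from separate cultures, so p sets the mean shift against a spread that is mostly that of other genes in these arrays, and says little on spread between cultures. When the WT polysome arrays shared the estimate of the spread, 15 of all 10157 genes were called higher and 67 lower. These are the counts to set beside each list count given below with the WT arrays in the fit. The genes past 2-fold in both pools were picked on these same arrays, and the p-values printed for them are no independent support.

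The largest group past 2-fold in both pools was lower after 10 Gy and held 20 genes of cell division among its 33 named members. A further noncoding RNA, the last of the 34, is not described here. Of the named genes 12 belong to the mitosis list, 8 to the DNA replication list and 13 to neither. Medians over the 34 were -1.18 in HMW, -1.31 in LMW and -1.20 in Total, and the LMW shift was the larger in 26. In bulk RNA, fewer cells of a type and less RNA per cell cannot be told apart.

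CDC20, the activator of the anaphase-promoting complex and a driver of mitotic exit, was lower in every preparation. Its level went from 11.84 to 10.37 in HMW, from 12.54 to 11.10 in LMW and from 9.88 to 8.22 in Total. All 3 irradiated arrays were thus below their mock partners by a similar amount, with a mean polysome shift of -1.45 (SE 0.08, adjusted p = 1.49e-19) in limma, 2.74-fold lower. The mitotic kinases AURKB, AURKA and PLK1 were each lower by at least 2-fold in both pools. AURKB, the kinase of the chromosomal passenger complex, went from 8.12 to 6.81 in HMW and from 8.74 to 7.42 in LMW. AURKA, the spindle pole kinase, went from 10.50 to 9.47 and from 10.53 to 9.36. PLK1, which drives mitotic entry, went from 7.56 to 6.34 and from 7.96 to 6.80, and its shift in Total was smaller at -0.58. CCNB1, the cyclin of the mitotic kinase CDK1, went from 10.99 to 9.98 in HMW and from 11.36 to 10.02 in LMW. KIF20A, a kinesin of cytokinesis, shifted by -1.26 and -1.31, and BIRC5 (survivin) by -1.05 and -1.67. FOXM1, a transcription factor of the mitotic genes, went from 7.03 to 5.87 in HMW and from 7.90 to 6.64 in LMW.

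A few mitotic transcripts fell further in LMW than in HMW. SGO2, which protects centromeric cohesion, went from 8.54 to 7.52 in HMW and from 7.43 to 5.47 in LMW. ASPM, a spindle pole protein with a long mRNA, went from 9.96 to 8.94 in HMW and from 6.84 to 5.05 in LMW. Both ended below the level of 6 in irradiated LMW, where array signal flattens, so the size of their LMW shifts is uncertain. The same holds for SPC25, a kinetochore subunit, which was at 5.98 and 5.37 after 10 Gy from 7.24 and 7.07. In all, 9 of the 34 genes had at least 1 of the 4 arrays below 6.

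The whole mitosis list shows how far this reached. Of 53 kept members, 52 were below 0 in both pools, against 3231 of all 10157 genes. In limma 49 fell and 0 rose, where 7.6% and 6.61% of all genes did, and 4 did not pass. The median shift was -0.83 in HMW, -0.90 in LMW and -1.13 in Total, beside 0.03, -0.02 and -0.04 over all genes. With the WT arrays in the fit 23 of the 49 calls were made. The lowest members by mean shift were SGO2 (-1.49), SPC25 (-1.48), CDC20 (-1.45) and ASPM (-1.40). At the other end stood BUB3 (-0.14, adjusted p = 0.266), a checkpoint protein, and CENPI (-0.18, adjusted p = 0.667), HMMR (-0.31, adjusted p = 0.0463) and KIF20B (-0.36, adjusted p = 0.11). CENPI had all 4 arrays below 6.

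DNA replication genes formed the second part of the group. GINS2, a subunit of the replicative helicase, went from 8.30 to 6.97 in HMW and from 9.07 to 7.23 in LMW. A second GINS2 probe set, detected at 6 or above in all 4 arrays, gave 0.04 and 0.21 instead, so the direction for GINS2 depends on the probe set. RRM2, the small subunit of ribonucleotide reductase, went from 11.90 to 10.61 in HMW and from 11.83 to 10.52 in LMW. Its second probe set gave nearly the same shifts, -1.15 and -1.26. UHRF1, which guides maintenance methylation of new DNA, went from 10.86 to 9.41 and from 10.52 to 9.24. The helicase subunit MCM6 went from 10.57 to 9.44 and from 10.50 to 9.26. CDC6, which loads that helicase, went from 8.18 to 6.95 and from 8.04 to 6.67, and a second CDC6 probe set gave -1.22 and -1.49. CCNE2, an S-phase cyclin, and ORC1, a subunit of the origin recognition complex, ended at 5.71 and 5.86 in HMW, close to or below the filter level. CCNA2, the cyclin of S and G2 phase, shifted by -1.26 and -1.21, and by -1.67 and -1.62 in a second probe set.

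Of the 53 kept DNA replication genes, 47 were below 0 in both pools, against 3231 of all 10157 genes. In limma 37 fell and 0 rose, where 7.6% and 6.61% of all genes did. With the WT arrays in the fit 14 were called down. Medians were -0.65 in HMW, -0.73 in LMW and -0.76 in Total. The top of the list was GINS4, another helicase subunit, at 0.39 (adjusted p = 0.0664), with ORC3 (0.05, adjusted p = 0.874), RFC1 (0.02, adjusted p = 0.96) and RPA1 (-0.03, adjusted p = 0.876) near 0. GINS4 stood out by its preparations: its shifts of 0.35 in HMW and 0.42 in LMW contrasted with -0.97 in Total. Over the 8 both-down genes with a second detected probe set, that set went the same way in 7 and was past 2-fold in both pools in 5.

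**Figure D2:**
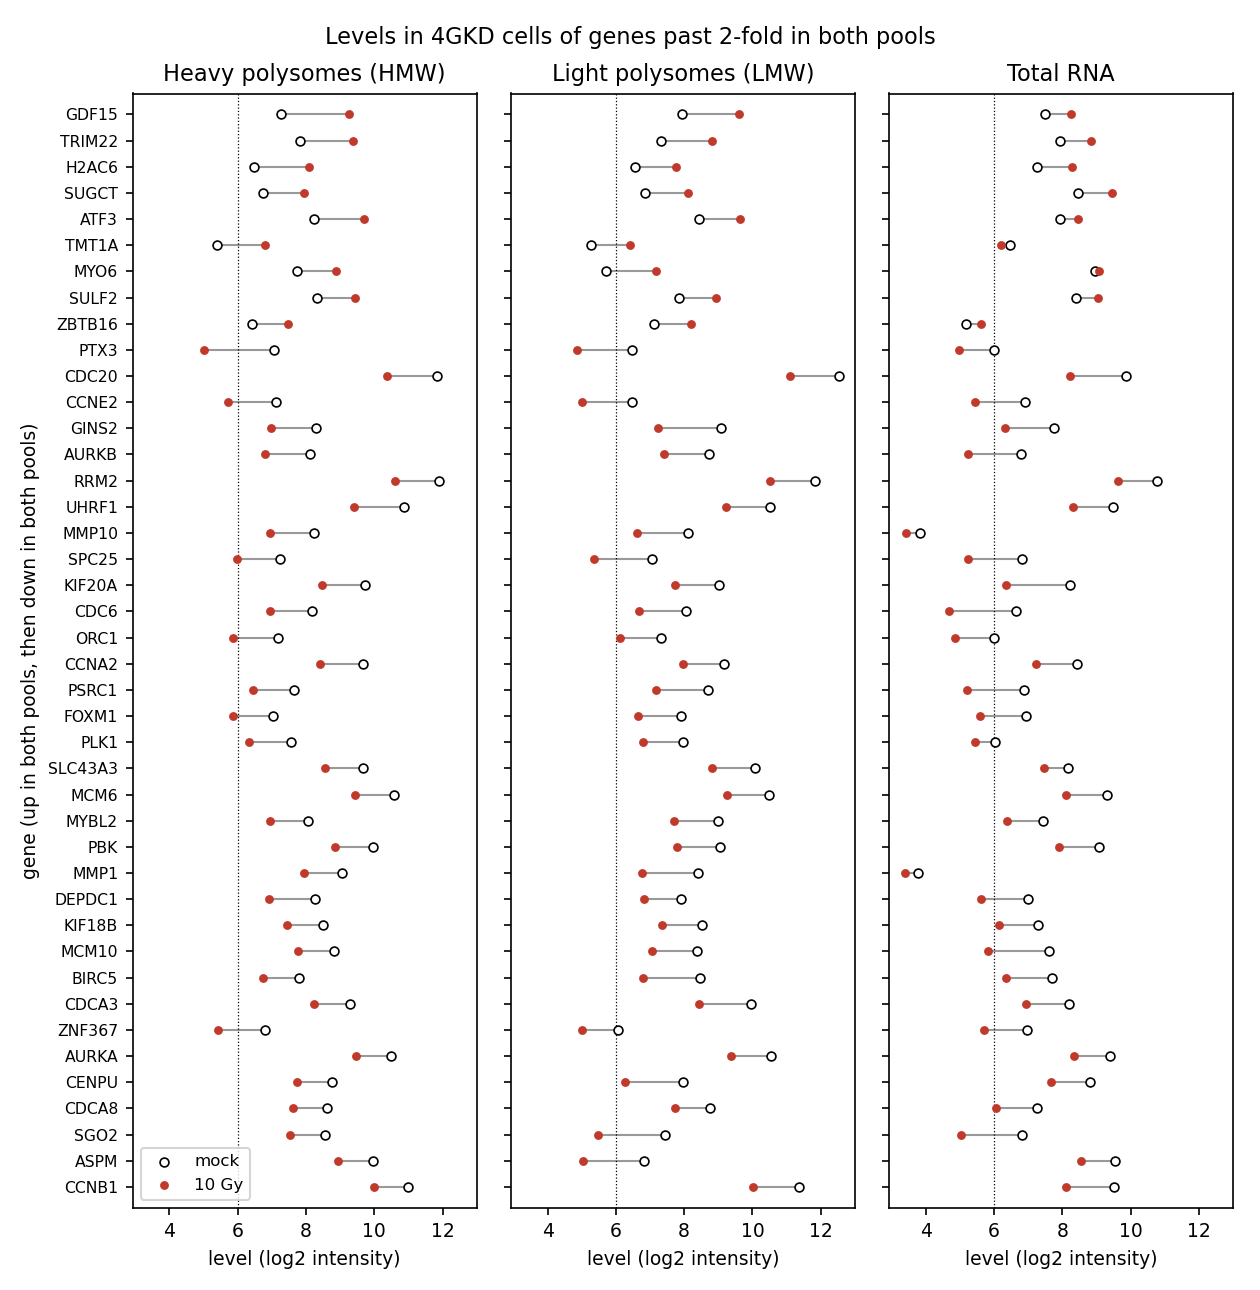
Log2 level (horizontal axis) in mock (open circles) and irradiated (filled circles) 4GKD cells of the 42 named genes past 2-fold in both pools, in heavy polysomes, light polysomes and Total RNA, with the filter level of 6 dotted. The 9 upper genes lie to the right after 10 Gy in both pools and the 33 lower ones to the left, and MMP1 and MMP10 lie far below 6 in Total alone.

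Cell division genes share promoter features, some of which genes that rose also have, and sequences are shown for 3 of the lower genes and for GDF15, the gene with the largest rise. Sequences are from RefSeq on GRCh38.p14, the 250 bases before the annotated transcription start, 5′ to 3′ in the direction of the gene. CDC20 lies at chr1:43358731-43358980 on the plus strand, PLK1 at chr16:23678639-23678888 (plus), SPC25 at chr2:168890431-168890680 (minus) and GDF15 at chr19:18385908-18386157 (plus). Capitals mark CCAAT boxes and the CHR hexamer TTTGAA, or in GDF15 the TATAAA box, on either strand, so ATTGG and TTCAAA are the same motifs on the opposite strand.
CDC20: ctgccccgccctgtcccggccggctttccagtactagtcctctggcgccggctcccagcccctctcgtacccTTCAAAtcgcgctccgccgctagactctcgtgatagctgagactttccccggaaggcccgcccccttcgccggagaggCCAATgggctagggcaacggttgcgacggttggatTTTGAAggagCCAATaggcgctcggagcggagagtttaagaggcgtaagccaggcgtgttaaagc
PLK1: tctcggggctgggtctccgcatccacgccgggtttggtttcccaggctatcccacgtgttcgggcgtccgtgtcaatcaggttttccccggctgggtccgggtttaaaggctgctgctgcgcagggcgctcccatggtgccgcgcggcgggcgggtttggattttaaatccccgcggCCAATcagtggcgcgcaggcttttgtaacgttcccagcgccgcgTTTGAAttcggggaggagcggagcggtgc
SPC25: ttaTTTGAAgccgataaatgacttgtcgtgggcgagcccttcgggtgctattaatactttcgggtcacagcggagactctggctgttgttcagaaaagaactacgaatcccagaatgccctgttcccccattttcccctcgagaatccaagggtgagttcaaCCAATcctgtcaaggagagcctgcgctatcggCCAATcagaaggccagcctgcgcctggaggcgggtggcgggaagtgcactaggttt
GDF15: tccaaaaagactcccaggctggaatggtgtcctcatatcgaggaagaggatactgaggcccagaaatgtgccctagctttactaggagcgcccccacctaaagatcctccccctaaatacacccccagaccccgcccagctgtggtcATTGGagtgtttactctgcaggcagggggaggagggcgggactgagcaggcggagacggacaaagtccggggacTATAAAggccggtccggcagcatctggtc
In CDC20 TTTGAA begins 65 bases before the start, between CCAAT boxes at 100 and 55 bases. In PLK1 it begins 29 bases before the start, downstream of a CCAAT box at 73. SPC25 holds CCAAT boxes at 88 and 56, while its single TTTGAA lies far upstream at 247. GDF15 has TATAAA at 29 bases before the start and a CCAAT box on the opposite strand (ATTGG) at 103.

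RefSeq windows were found for 27 of the 34 both-down genes and for 7 of the 9 both-up genes. CCAAT was present on either strand in 25 of the 27 (92.6%), against 42.2% of 8409 kept genes and 37.0% of 27305 RefSeq genes with a window. TTTGAA was present in 7 of the 27 (25.9%), against 11.8% of kept and 16.1% of RefSeq genes. Among 45 mitosis genes with a window, 26 held TTTGAA (57.8%) and 37 held CCAAT (82.2%). Replication genes differed in kind: 1 of 46 held TTTGAA (2.17%), 28 held CCAAT (60.9%), and 10 held the E2F site TTTCCCGC (21.7%, against 3.02% of kept genes). Of the 7 both-up windows, 5 held CCAAT (71.4%), so the box was common there too, and 3 held TATAAA (42.9%, against 7.54% of kept genes). None of these motifs contains another. A match is a description of these windows and not a measured binding site.

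Outside cell division, PTX3 ranked first among the genes lower in both pools when each gene was ranked by its smaller shift. It encodes a secreted pattern recognition protein of inflammation. PTX3 went from 7.05 to 5.02 in HMW, from 6.48 to 4.87 in LMW and from 5.99 to 4.98 in Total. It ended below 6 everywhere, so these differences understate the change if the true level was lower still. In WT cells the PTX3 level stayed between 6.17 and 7.81 in all 6 arrays, with shifts of 0.11 in HMW and -0.86 in LMW.

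The secreted proteases MMP10 (stromelysin 2) and MMP1 (interstitial collagenase) were also lower in both pools. MMP1 went from 9.05 to 7.95 in HMW and from 8.42 to 6.78 in LMW. MMP10 went from 8.23 to 6.95 in HMW and from 8.12 to 6.61 in LMW. In Total of the same genotype they stood at 3.76 and 3.82 in mock cells, far below 6, and in all 6 WT arrays both were below 4. The polysome arrays of 4GKD cells were thus the only ones that measured these mRNAs above the filter level. MMP1 and MMP10 were kept through these 4 arrays alone. Why the Total arrays lacked them was not tested. Of 14 kept metalloproteinase and inhibitor genes, 4 fell and 1 rose, where 7.6% and 6.61% of all genes did. MMP1 and MMP10 are among the 4, so the count depends on the filter and is no separate support. The 4 were MMP10 (-1.40), MMP1 (-1.37), MMP9 (-0.72) and PLAUR (-0.39), and the riser was the inhibitor TIMP1 (0.24). With the WT arrays in the fit 0 of the 14 passed. SLC43A3, a transporter of the solute carrier family, went from 9.68 to 8.56 in HMW and from 10.08 to 8.81 in LMW, with a second probe set at -1.38 and -1.11.

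GDF15, a secreted cytokine of the TGF-beta superfamily and a p53 target, had the largest rise. It went from 7.28 to 9.27 in HMW, from 7.92 to 9.60 in LMW and from 7.49 to 8.25 in Total. Both polysome pools moved more than Total, with a mean shift of 1.83 (SE 0.12, adjusted p = 2.36e-16), 3.56-fold. TRIM22, an interferon- and p53-induced ubiquitin ligase, followed, from 7.82 to 9.37 in HMW, from 7.33 to 8.81 in LMW and from 7.93 to 8.85 in Total. ATF3, a stress-induced transcription factor, went from 8.23 to 9.71, from 8.45 to 9.63 and from 7.93 to 8.45. The histone gene H2AC6 went from 6.47 to 8.08 in HMW and from 6.55 to 7.76 in LMW.

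The other 5 upward genes were SUGCT, a mitochondrial CoA transferase, SULF2, an extracellular sulfatase of heparan sulfate, ZBTB16, a zinc finger repressor, MYO6, an unconventional myosin, and TMT1A, a methyltransferase of thiols. SUGCT shifted by 1.20 in HMW and 1.24 in LMW, SULF2 by 1.11 and 1.08, and ZBTB16 by 1.05 and 1.09. MYO6 went from 7.72 to 8.87 in HMW and from 5.71 to 7.17 in LMW, from a start below 6 in LMW. A second MYO6 probe set, also detected throughout, gave 1.09 and 0.82. TMT1A began below 6 in both pools and went from 5.39 to 6.79 and from 5.26 to 6.41, while its Total shift was -0.26.

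The Total and WT arrays entered the filter and the choice of probe set, but their shifts did not define the classes. In Total, 8 of the 9 upward genes were above 0, where 4155 of all 10157 genes were, and TMT1A was the exception. Past 2-fold was 1 of the 9, where 2 of all genes were (0.0197%). Of the 34 downward genes, 33 were below 0 in Total, where 6001 of all genes were, and 28 past 2-fold, where 96 were (0.945%). In WT cells all 9 upward genes were above 0 in both pools and in Total, and 8 passed 2-fold in HMW and 6 in LMW. Above 0 in WT cells were 5262 of all 10157 genes in HMW, 5152 in LMW and 4656 in Total. The WT background for upward shifts was high, 15.8% of genes in HMW and 15.9% in LMW. Of the 34 downward genes, 20 were below 0 in WT HMW and 21 in WT LMW, where 4895 and 5004 of all genes were. Both WT pools were below 0 for 17 of them. Past 2-fold downwards were 2 in WT HMW (2.2% of all genes) and 4 in WT LMW (4.14%).

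Targets of p53 were mostly higher in polysomes after 10 Gy. Of 46 listed genes, 43 were on the array and 39 kept. Of these 31 were above 0 in both pools, against 3482 of 10157 genes. In limma 25 rose, where 6.61% of all genes did, and 13 did not pass. E2F7, a repressor of E2F target genes, fell (-0.38, adjusted p = 0.0426). The medians were 0.55 in HMW, 0.47 in LMW and 0.27 in Total. When the WT arrays shared the estimate of the spread, 5 of the 25 passed, and without an intensity trend 18 did. GDF15 and TRIM22 were the 2 past 2-fold in both pools.

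Among the arrest and feedback targets, CDKN1A (p21) went from 10.83 to 11.46 in HMW, from 11.28 to 12.14 in LMW and from 11.32 to 12.05 in Total. Its mean shift was 0.75 (SE 0.08, adjusted p = 9.07e-10), 1.68-fold, and the 3 preparations were close to each other. MDM2, the ligase that degrades p53, went from 10.11 to 10.92 in HMW, from 9.37 to 10.15 in LMW and from 10.67 to 11.30 in Total, a mean shift of 0.80 (SE 0.10, adjusted p = 1.86e-08). PPM1D, a phosphatase that ends damage signalling, shifted by 0.86 and 0.66, and TP53INP1, a stress-induced nuclear protein, by 0.90 and 0.75. SESN1, a sestrin that restrains mTORC1, shifted by 1.10 and 0.88. PLK3 and PLK2, stress-responsive polo-like kinases, had mean shifts of 0.70 and 0.51. Other arrest targets did not pass: cyclin G1 (CCNG1) was at 0.01 (adjusted p = 0.977), GADD45A at 0.55 in HMW and -0.10 in LMW (adjusted p = 0.217 for the mean), and SFN (14-3-3 sigma) at 0.06 (adjusted p = 0.526).

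Several p53 targets act in DNA repair. DDB2 and XPC, which recognise damage in nucleotide excision repair, had mean shifts of 0.80 and 0.77. POLH, a translesion polymerase, was at 0.83, though the median of its probe sets gave 0.30, which no longer passed (adjusted p = 0.234). RRM2B, the p53-induced subunit of ribonucleotide reductase, rose by 0.63 while its proliferation-linked paralogue RRM2 fell by 1.30. Of the apoptosis targets, BAX shifted by 0.85 in HMW and 0.24 in LMW with -0.17 in Total. PMAIP1 (NOXA) had a mean shift of 0.37 (adjusted p = 0.0294) and TP53I3 one of 0.45. The receptors FAS (0.29, adjusted p = 0.108), TNFRSF10B (0.13, adjusted p = 0.379) and TNFRSF10A (-0.21, adjusted p = 0.2) did not pass, nor did BCL2L1 (0.24, adjusted p = 0.185), the anti-apoptotic BCL-XL gene. SPATA18 and KITLG, the stem cell factor gene, had the next largest mean shifts, 1.01 and 0.93, but 2 and 3 of their 4 arrays were below 6.

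**Figure D3:**
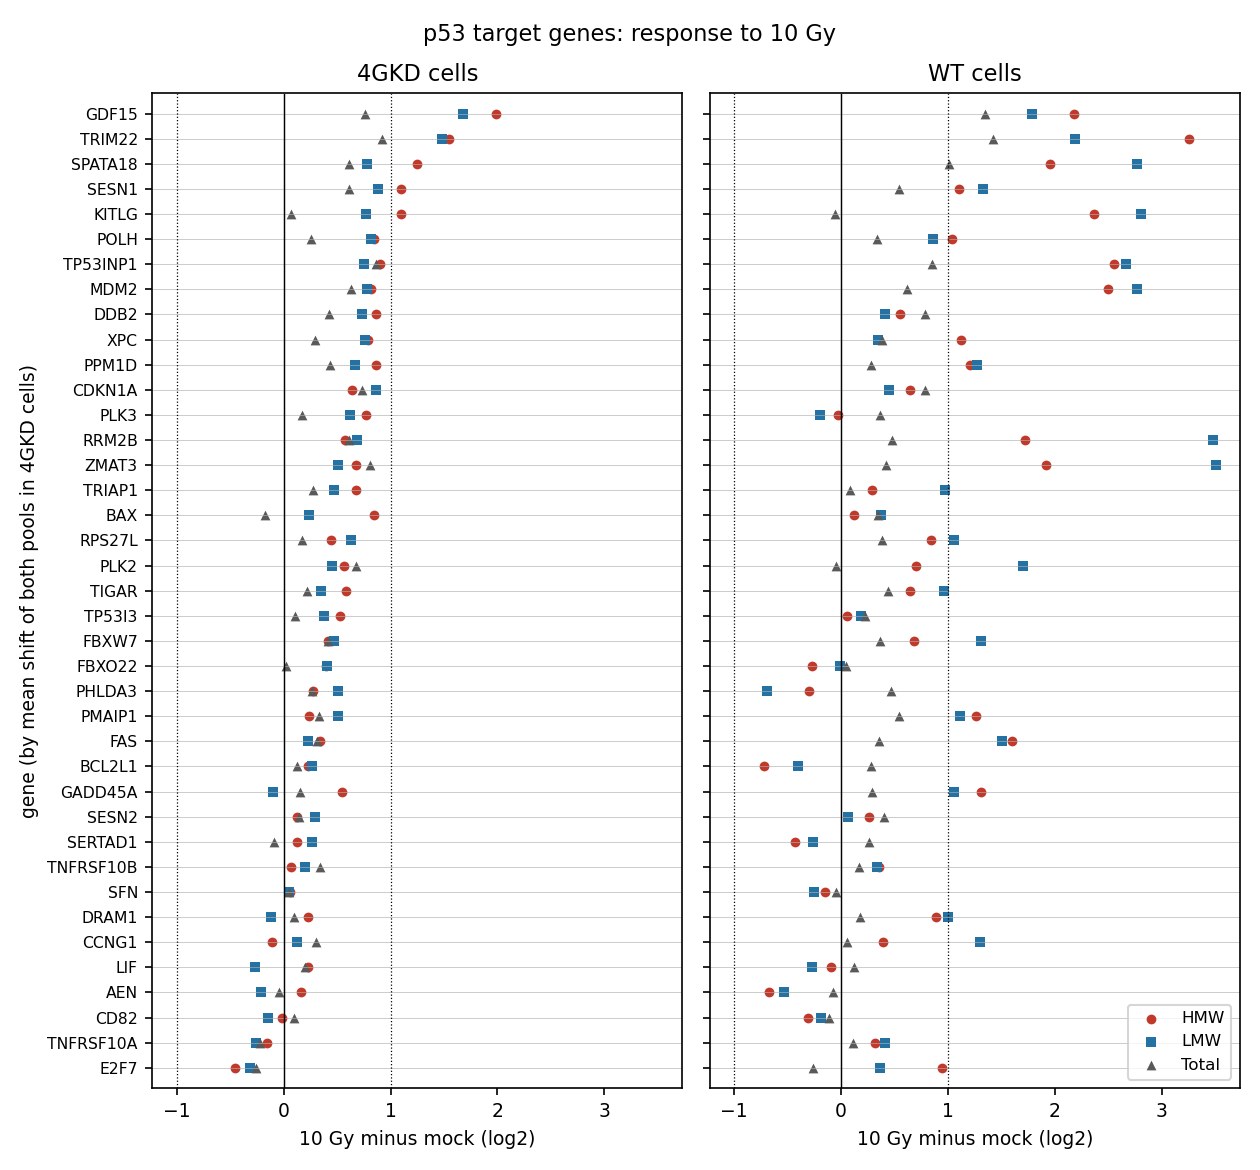
Shift (10 Gy minus mock, log2, horizontal axis) of the 39 kept p53 targets in heavy polysomes (circles), light polysomes (squares) and Total RNA (triangles) of 4GKD (left) and WT cells (right), ordered by the mean polysome shift in 4GKD cells. In 4GKD cells most points lie between 0 and 1. In WT cells MDM2, TP53INP1, ZMAT3, RRM2B and GDF15 are among the genes that pass 1.7 in both pools.

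Among 28 kept DNA damage signalling genes, 16 did not pass in limma, 10 fell and 2 rose, where 7.6% of all genes fell and 6.61% rose. Below 0 in both pools were 18 of the 28, against 3231 of 10157 genes, with medians of -0.20 in HMW, -0.16 in LMW and -0.23 in Total. With the WT arrays in the fit, 1 fell and 0 rose. ATM, the kinase that responds to double-strand breaks, was the highest member. It went from 8.77 to 9.30 in HMW, from 6.63 to 7.60 in LMW and from 7.48 to 7.27 in Total, a mean polysome shift of 0.75 (SE 0.13, adjusted p = 3.5e-05). Without probe sets whose names end in _x_at or _s_at the ATM shift was 0.36 and did not pass (adjusted p = 0.174). RAD50 of the MRE11 complex also rose (0.46), while ATR was at 0.08 (adjusted p = 0.723), MRE11 at 0.12 (adjusted p = 0.645) and NBN at -0.25 (adjusted p = 0.185).

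Of the 10 that fell, TIPIN of the fork protection complex went from 8.65 to 8.001 in HMW and from 8.38 to 6.95 in LMW. CDC25A, a phosphatase that activates cyclin-dependent kinases, shifted by -0.93 and -1.04. H2AX, the histone variant phosphorylated at breaks, went from 10.11 to 9.08 in HMW, from 10.70 to 9.77 in LMW and from 9.76 to 8.93 in Total, and was lower in WT pools too (-1.24 and -1.19). The kinases CHEK1 (-0.64) and WEE1 (-0.55) fell, as did BRCA1 (-0.58) and its partner BARD1 (-0.52), CDC25C (-0.48), RAD1 (-0.47) and TIMELESS (-0.46). Among 24 kept genes of homologous recombination and the Fanconi pathway, 12 fell and 0 rose, where 7.6% and 6.61% of all genes did. With the WT arrays in the fit 1 fell. The lowest were EXO1 (-1.14), RAD51AP1 (-1.05), DNA2 (-0.96) and UBE2T (-0.94), and the highest FANCF (0.36, adjusted p = 0.0675). RAD51AP1 and DNA2 ended at 5.29 and 4.79 in irradiated LMW, and 9 of the 24 genes had at least 1 of the 4 arrays below 6. Excision and mismatch repair genes had medians of 0.07 in HMW and -0.00029 in LMW. Of these 29 genes 4 rose and 4 fell, where 6.61% and 7.6% of all genes did. With the WT arrays in the fit 1 rose and 1 fell.

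Genes assigned to 1 pool were few, and nearly all of them were lower in LMW. ERGIC1, a membrane protein of the ER-Golgi compartment, went from 10.80 to 9.12 in LMW but from 8.58 to 9.04 in HMW. Before irradiation it was higher in LMW than in HMW, and afterwards both pools stood near 9. CTSZ, the protease cathepsin Z, went from 9.58 to 8.10 in LMW and from 6.87 to 7.49 in HMW. RCC1, the nucleotide exchange factor of the GTPase Ran, went from 9.65 to 7.34 in LMW, the largest shift of any kept gene in either pool, and from 7.29 to 7.07 in HMW. RAD23B, a partner of XPC in damage recognition, went from 11.03 to 9.43 in LMW and from 10.49 to 10.45 in HMW, with -0.03 in Total.

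Other probe sets of these genes did not repeat the size. Of the 15 LMW-lower genes, 5 had a further 6 probe sets detected in all 4 arrays, of which 5 went down in LMW and 0 reached 2-fold. For RAD23B they gave -0.11 and -0.21 in LMW, and for CTSZ 0.40. The nearest were ERGIC1 at -0.9997, just short of the threshold, and RCC1 at -0.68. When the median of the probe sets stood for a gene, 3 of the 9 genes still kept remained in the class. Smaller members were METTL21A (-1.52 in LMW, -0.39 in HMW), the SNARE protein VAMP4 (-1.31 and -0.20), MIDN (-1.02 and 0.15) and the mitotic kinesin KIFC1 (-1.17 and -0.07). STK16 and LINC01003 completed the 10 largest, with 3 and 2 of their 4 arrays below 6. None of the 15 passed 2-fold in Total, and the WT LMW shifts were above 0 for 11 of them, where 5152 of all 10157 genes were.

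The 3 genes higher in HMW alone were near background. CARD16, a caspase recruitment protein, was at 4.51 and 6.03 in HMW and at 4.68 and 4.69 in LMW, so that 1 of its 4 arrays reached 6. CYBRD1, a ferric reductase, went from 4.98 to 6.37 in HMW and from 5.68 to 6.02 in LMW, and the antisense RNA KLRK1-AS1 went from 5.28 to 6.30 and from 6.03 to 5.98. With a filter of 6 in all 4 arrays, 0 genes were left in this class.

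Other groups had medians well under 2-fold, with a few members past it. Of 12 kept histone genes, 5 rose and 3 fell (6.61% and 7.6% of all genes), and 1 and 2 did so with the WT arrays in the fit. The risers were replication-dependent genes of the histone clusters, H2AC6 (1.41), H2BC5 (1.03), H2BC12 (0.68), H1-2 (0.65) and H2BC6 (0.59). Those that fell were the variants H2AX (-0.98), H2AZ1 (-0.86) and H2AZ2 (-0.36). H1-2 illustrates the difference between genotypes: it went from 7.46 to 8.25 in HMW and from 7.63 to 8.14 in LMW of 4GKD cells, and from 7.70 to 6.64 and from 8.22 to 6.29 in WT cells. Probe sets of such closely related genes can share signal.

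Immediate early genes, the first wave of transcripts after a stimulus, rose in 13 of 29 cases and fell in 0, beside 6.61% of all genes that rose, with medians of 0.20 in HMW and 0.17 in LMW beside -0.01 in Total. ATF3 led, followed by JUN (0.56), EGR1 (0.52) and FOSB (0.50). JUN went from 11.17 to 11.80 in HMW, from 10.96 to 11.44 in LMW and from 9.57 to 9.53 in Total. EGR1 went from 10.76 to 11.36 and from 10.85 to 11.28 in the pools with a Total shift of -0.19, but the difference between polysome and Total shift did not pass for either factor (limma adjusted p = 0.179 for JUN and 0.0985 for EGR1). With the WT arrays in the fit 1 of the 13 calls was made, and without a trend 3.

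For the lists that follow, 6.61% of all genes rose and 7.6% fell. In the TGF-beta and BMP list 7 of 22 rose and 2 fell, the latter near the share of all genes. Of the inhibitors of differentiation, ID3 (0.48) and ID1 (0.35) were higher and ID2 (-0.44) lower. ID2 was below 6 in every array other than the 4 polysome arrays of 4GKD cells and was kept through these alone. Its fall and its place in the count thus depend on the filter and are no separate support. TGFB2, ACTA2 and LTBP2 rose by 0.67, 0.55 and 0.53, and TGFB2 had 2 of its 4 arrays below 6. Among squamous genes, SERPINB3, a serpin, was higher in polysomes (1.02) and the cornified envelope precursor SPRR1B lower (-1.09). The splicing kinases CLK1 (0.88) and CLK4 (0.76) rose, while the SR proteins SRSF10 (-0.65), SRSF6 (-0.57), SRSF7 (-0.56) and SRSF1 (-0.55) fell. Polyamine synthesis genes ODC1 (-0.67) and AMD1 (-0.65) fell and MXI1 (0.53), an antagonist of MYC, rose. MYC itself was at 0.03 (adjusted p = 0.831). In the interferon list 6 of 21 rose and 0 fell, IFIT3 (0.85) and PARP9 (0.68) the most, both from below 6 in mock LMW. With the WT arrays in the fit, 0 genes of the TGF-beta, splicing and interferon lists passed, 1 squamous gene rose and 1 fell, and 1 gene of the MYC and polyamine list fell.

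Genes of the translation machinery differed by class. For 53 cytosolic ribosomal protein genes the medians were 0.01 in HMW, 0.02 in LMW and -0.01 in Total, and 0 passed in limma. Of 39 initiation factors 9 fell and 1 rose, where 7.6% of all genes fell and 6.61% rose, with medians of -0.10 and -0.09. EIF4E, the cap-binding partner of eIF4G1, went from 9.49 to 9.09 in HMW, from 8.87 to 8.19 in LMW and from 9.88 to 10.02 in Total, and EIF5B rose (0.36). Nuclear genes of the respiratory chain were above 0 in both pools in 46 of 62 cases, against 3482 of 10157 genes, but the shifts were small (medians 0.15 and 0.11), and 8 rose and 1 fell (6.61% and 7.6% of all genes). Of 23 stress response genes, 2 rose and 6 fell. That list mixes mRNAs with upstream reading frames and other stress genes such as ASNS, so the counts do not describe the former alone. Among the falling ones were ASNS (-0.61) and TRIB3 (-0.52). The lowest mean, that of IFRD1 (-0.79), came mostly from LMW (-1.29, beside -0.28 in HMW). With the WT arrays in the fit 0 initiation factors and 0 respiratory chain genes passed, and 1 of the stress genes rose.

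**Figure D4:**
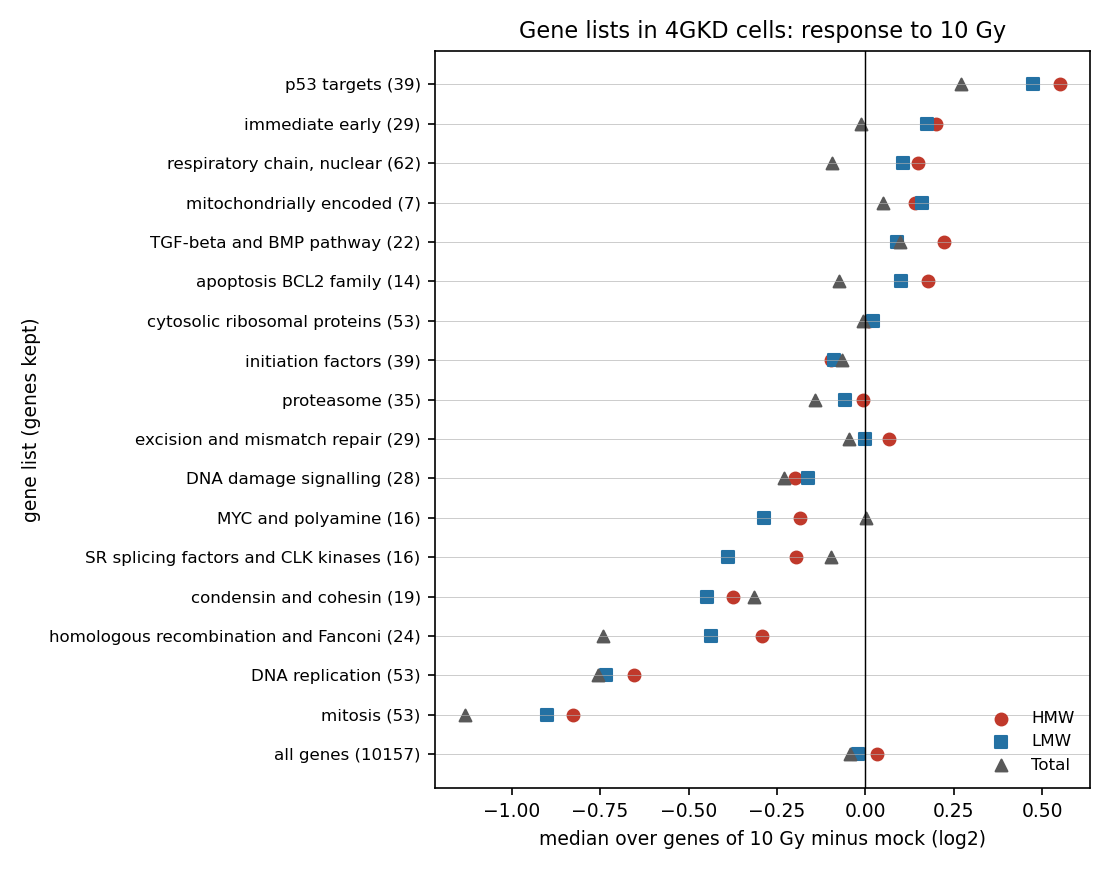
Median shift (10 Gy minus mock, log2, horizontal axis) over the kept genes of 17 lists and over all genes, in heavy polysomes (circles), light polysomes (squares) and Total RNA (triangles) of 4GKD cells. Mitosis and DNA replication lie furthest to the left and p53 targets furthest to the right in all 3 preparations, while ribosomal proteins sit close to 0.

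The polysome shift was compared with the Total shift in limma over the 6 arrays of 4GKD cells. The fit called 9 genes with a higher shift in polysomes (0.0886%) and 2 with a lower one (0.0197%), while 789 genes had an unadjusted p under 0.05, and without an intensity trend 0 were called. The 9 were TMT1A, SERPINB3, GINS4, MYO6, GDF15, IQGAP1, ID1, KRT14 and S100A6. SERPINB3 went from 9.30 to 10.24 in HMW and from 8.62 to 9.71 in LMW but from 7.49 to 7.07 in Total, a difference of 1.44 (SE 0.21, adjusted p = 0.000766). KRT14, the basal keratin, shifted by 0.77 and 0.59 in the pools and -0.10 in Total, a difference of 0.78 (SE 0.12, adjusted p = 0.00127). ID1, an inhibitor of differentiation, was uneven, with 0.60 in HMW, 0.11 in LMW and -0.50 in Total. IQGAP1, a scaffold of the cytoskeleton, shifted by 0.77, 1.21 and -0.01, and for GDF15 the difference was 1.08 (SE 0.22, adjusted p = 0.0367). One of the genes with a lower polysome shift was AQP3, the glycerol channel of keratinocytes. It went from 10.37 to 9.57 in HMW and from 10.98 to 9.87 in LMW, while in Total it was far less abundant and went from 6.71 to 6.75. The other is the noncoding RNA not described here.

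Mitosis genes had a more negative shift in Total than in polysomes in 44 of 53 cases; a polysome shift above that of Total was found in 5996 of all 10157 genes, and 0 of the 53 passed. Among p53 targets 29 of 39 had a higher polysome than Total shift and 1, GDF15, passed. Homologous recombination genes had the higher polysome shift in 22 of 24, and 0 passed.

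The response of 4GKD polysomes was then set against that of WT polysomes, in 1 limma fit over the 8 polysome arrays that tests the difference itself. WT pools moved far more: 1607 genes passed 2-fold upwards in WT HMW and 1620 in WT LMW, with a standard deviation over genes of 0.77 and 0.83, against 0.29 and 0.32 in 4GKD cells. In Total the standard deviations were alike, 0.21 in WT and 0.25 in 4GKD cells. The fit called 856 genes with a higher response in 4GKD cells (8.43%) and 1949 with a lower one (19.2%). Each of these differences rests on the WT polysome arrays, whose mock and irradiated members resembled each other less than some arrays of other groups or preparations, and the part of this in the result was not tested. Hairpin, doxycycline and loss of eIF4G1 cannot be told apart in this comparison, and each genotype rests on 1 array per condition and preparation.

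Mitosis genes differed between the genotypes in most cases. Of 53 members, 36 had a lower response in 4GKD cells and 0 a higher one, where 19.2% and 8.43% of all genes did. In WT cells the median was 0.56 in HMW, 0.08 in LMW and -0.02 in Total. In Total 33 of the 53 were past 2-fold downwards in 4GKD and 0 in WT cells, where 96 and 1 of all 10157 genes were. CDK1, the mitotic kinase, shows both sides. In 4GKD cells it went from 10.19 to 9.60 in HMW and from 9.58 to 9.01 in LMW, and in WT cells from 10.56 to 12.002 and from 10.43 to 12.06, a difference of -2.12 (SE 0.17, adjusted p = 0.00487). TOP2A, which untangles chromosomes, shifted by -0.72 and -0.48 in 4GKD and by 1.67 and 2.55 in WT cells. CDC20 was lower in both genotypes, -0.73 and -1.02 in WT pools, with a difference of -0.58 (SE 0.15, adjusted p = 0.0266). Of the 53 replication genes, 19 had a lower response in 4GKD cells and POLD2 a higher one (0.70). RRM2 differed by -1.63 (SE 0.17, adjusted p = 0.00664), while MCM6, lower in both genotypes, differed by -0.15 (adjusted p = 0.65, 95% interval -0.73 to 0.43).

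**Figure D5:**
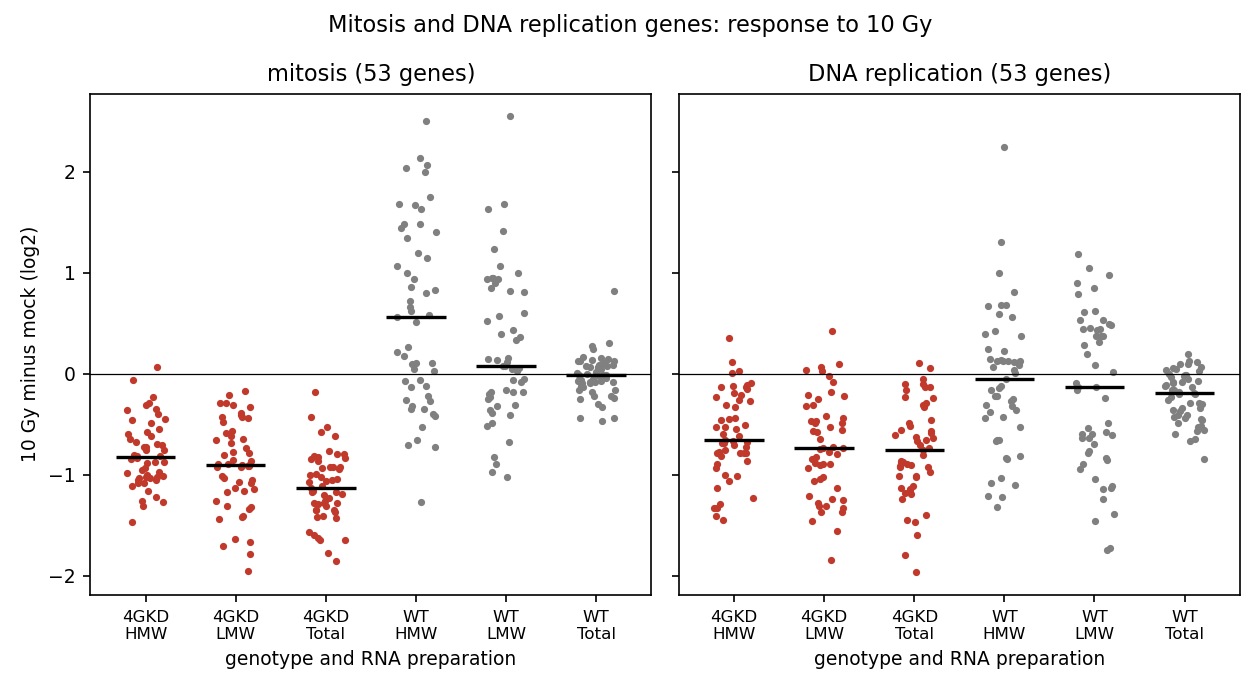
Shift (10 Gy minus mock, log2, vertical axis) of 53 mitosis genes (left) and 53 DNA replication genes (right) in 4GKD (red) and WT cells (grey), 1 point per gene, with the median as a bar. In 4GKD cells the medians of mitosis genes lie at -0.83, -0.90 and -1.13 in heavy polysomes, light polysomes and Total, and in WT cells at 0.56, 0.08 and -0.02.

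For p53 targets the difference between genotypes was uneven. Of 39 genes, 12 had a lower response in 4GKD cells and 3 a higher one, and 24 did not pass, where 19.2% of all genes had a lower and 8.43% a higher response. MDM2 went from 7.84 to 10.34 in HMW and from 7.81 to 10.57 in LMW of WT cells, and its response in 4GKD cells was lower by 1.83 on the log2 scale (adjusted p = 0.00664). ZMAT3 (-2.12), RRM2B (-1.97), TP53INP1 (-1.78) and FAS (-1.27) differed likewise. CDKN1A did not pass: its WT shifts of 0.65 and 0.45 gave a difference of 0.20 (SE 0.17, adjusted p = 0.37). GDF15 did not pass either, with WT shifts of 2.18 and 1.78 and a difference of -0.15 (SE 0.25, adjusted p = 0.667). The 95% intervals of these differences ran from -0.18 to 0.58 for CDKN1A and from -0.74 to 0.44 for GDF15. The 3 with a higher response, a share near that of all genes, were PHLDA3 (0.89), PLK3 (0.81) and BCL2L1 (0.81). Of 12 histone genes 7 had a higher response in 4GKD cells and H2AZ1 a lower one (-0.59).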

How the data were processed

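Polysome and total RNA were hybridised to Affymetrix arrays with 54675 probe sets. The authors deposited probe set intensities on a linear scale, made with RMA per the submitters' processing notes. RMA corrects background, normalises arrays and summarises probes, which fixes each array's overall level; the sources used here name no version and do not say whether arrays were normalised together. Array medians lay between 22.6 and 24.4. Depth does not apply, and the number of arrays limits precision.

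Intensities were turned to log2. Probe sets with 1 symbol (41097; 1801 had several and 11777 were not listed) were renamed through RefSeq gene IDs where matched (41043). Each gene was read from the probe set whose mean log2 level over 12 arrays was highest. Tests used limma 3.58.1 in R 4.3.3 (eBayes with trend, Benjamini-Hochberg at 0.05 over all genes), with the preparation, or genotype by pool, as a block. Tables used pandas 2.3.3. The scripts were tested on simulated data. The members and lists were chosen with earlier results of these data known. Named are the 10 largest genes per class at 6 or above in the higher array of each pool they pass in, the 6 highest and lowest for each other fit, up to 4 at each end of a list, and any p53 target or damage signalling gene. Other genes past 2-fold in both pools, genes at the threshold, and CDK1, TOP2A, POLD2 and the called cell type markers were named after their values were seen. Alternatives were other filters, probe set rules, normalisations, fold thresholds and fits.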

Additional observations from a re-analysis of the deposited data

Results flagged for a closer look

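The response of polysomes to 10 Gy differed between the genotypes for many genes by the limma test of the difference over 8 arrays: 856 genes had a higher and 1949 a lower response in 4GKD than in WT cells. For the genes named next the WT shifts were larger in size than the 4GKD shifts. MYBL1, a transcription factor of the MYB family, had a difference of -3.23, with shifts of -0.81 and -1.05 in HMW and LMW of 4GKD and 2.13 and 2.46 of WT cells. INHBA, the activin A subunit, differed by -3.21, with 0.15 and 0.33 in 4GKD and 3.61 and 3.29 in WT pools. ACER3, an alkaline ceramidase, differed by -3.15, the co-chaperone DNAJB14 by -3.03, HYCC2 by -2.93 and the epithelial transcription factor EHF by -2.92. In Total the WT shifts of these 6 genes were between -0.23 (MYBL1) and 0.62 (INHBA).

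At the other end, LINC01003 differed by 2.22, the linker histone H1-2 by 2.14, the matricellular gene CCN2 by 1.75, the Golgi exchange factor GBF1 by 1.66, the mRNA export subunit THOC6 by 1.53 and the histone H2BC6 by 1.51. CCN2 was at 0.49 and 0.33 in 4GKD and at -1.47 and -1.22 in WT pools. LINC01003 fell below 6 in irradiated LMW of both genotypes, and its 4GKD shifts of 0.33 and -1.06 disagree between pools. H2BC6 was below 6 in both irradiated WT pools, and GBF1 in irradiated WT LMW. What sets the size of the WT shifts was not tested.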

How the results depend on the processing

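All comparisons rest on 1 array per condition, so no array could be left out. The labels give no replicate numbers, and the fit reported is already paired by pool. Over 348 values for the 42 named both-pool genes under the limma alternatives, 338 kept their direction and call. With the 8-array fit, ASPM, CENPU, MMP1, MMP10, MYO6, TMT1A, ZBTB16 and ZNF367 no longer passed. GINS2 turned to 0.12 (adjusted p = 0.682) with the median of probe sets and to 0.12 (0.729) without _x_at and _s_at sets. Of 562 values for p53 and damage genes 60 were weaker and 3 stronger. Of 70 values for genes in 1 pool 7 moved, of 69 for polysome against Total 32 were weaker, and of 84 for 4GKD against WT 1 was. Values at or near the level of 6 are compressed.

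Upward genes in HMW (34 as reported) numbered 21 with a filter at 7, 15 with 6 in all 4 arrays, 20 with the median of probe sets, 330 at 1.5-fold and 0 at 4-fold. Downward genes in HMW (52) were 239 at 1.5-fold and 1 at 4-fold. Upward genes in LMW (23) were 8 with the median, 12 without _x_at and _s_at sets, 229 at 1.5-fold and 0 at 4-fold, and downward genes (112) were 474 and 1. Genes up in both pools (9) were 5 with the median, 4 without _x_at and _s_at sets, 89 at 1.5-fold and 0 at 4-fold, and genes down in both (34) were 173 and 0. Genes up in HMW alone (3) were 0 with either stricter filter, 1 with loess or quantile normalisation, 9 at 1.5-fold, 0 at 4-fold and 25 when any difference between pools counted. Genes down in LMW alone (15) were 4 with the median, 8 without _x_at and _s_at sets, 9 with loess, 24 at 1.5-fold, 1 at 4-fold and 78 with any difference. Genes down in HMW alone (0) were 6 with the median, 2 without _x_at and _s_at sets, 2 at 1.5-fold and 18 with any difference. Genes up in LMW alone (0) were 2 at 1.5-fold and 14 with any difference, and opposite genes (0) were 6 at 1.5-fold. The count with any difference was added after seeing the data, as was the reading of other probe sets.

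Limma calls of the mean polysome shift (671 up, 772 down) were 367 up with the median, 425 up and 472 down without _x_at and _s_at sets, 255 and 322 without a trend, and 15 and 67 over 8 arrays. For polysome against Total (9 up, 2 down) they were 22 and 6 without a filter, 2 and 1 with a filter at 7, 4 and 0 with 6 in all 4 arrays, 5 and 5 with the median, 1 and 1 without _x_at and _s_at sets, 20 and 13 with loess, and 0 and 0 without a trend. Counts past 2-fold of that difference (16 up, 3 down) were 50 and 7 for HMW alone, and 21 down for LMW alone. For 4GKD against WT (856 up) calls were 553 without a filter, 460 without _x_at and _s_at sets, 1686 with quantile normalisation and 454 without a trend. Its upward differences past 2-fold (149) were 270 for HMW alone and 413 for LMW alone. The causes were not tested.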
